A study of Mus musculus with 2 samples.

Results

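The astrocytes described here are the main astrocyte subcluster of the mouse brainstem, 1062 of 18281 nuclei in a single-nucleus RNA-seq data set. They were chosen by the clusters deposited with the counts, as the nuclei of the astrocyte cluster that carry subcluster number 4 at a resolution of 0.8. A further 11 nuclei carry the same subcluster number but belong to a neuronal cluster, and they were not included. Astrocytes clear glutamate and potassium released by neurons, supply them with glutamine and lactate, and are joined to one another by gap junctions. In the brainstem they lie within the networks that set breathing and other autonomic output, and they differ from forebrain astrocytes in the transporters and position-code transcription factors that they express.

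The study asked how the brainstem transcriptome of a mouse with Dravet syndrome, an early-onset epilepsy, differs from that of a wild-type mouse. The HET animal carried 1 copy of the Scn1a A1783V missense knock-in (Scn1aA1783V/WT), and the WT animal carried intact copies. Both were untreated females at postnatal day 41 on a C57Bl6 background. The knock-in was switched on by crossing a floxed-stop male with a Sox2-Cre female, and Sox2-Cre acts in the early embryo, so that the allele is not restricted to neurons. Each genotype is 1 animal and 1 library. Genotype, animal, dissection and library therefore cannot be told apart, no test between genotypes is possible, and every interval below is a 95% interval that covers counting error only.

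The subcluster held 475 WT and 587 HET nuclei, which was 5.13% (exact interval 4.69 to 5.60) of the WT library and 6.51% (6.01 to 7.03) of the HET library. Of the nuclei outside the neuronal clusters, it made up 15.1% in WT and 16.2% in HET. No cell barcode of the subcluster occurred in both libraries, although 23 barcodes did so among all nuclei. The sums below rest on 1479371 WT and 2034862 HET unique molecular identifiers (UMIs), each of which marks 1 captured RNA molecule. The median nucleus held 2841 UMIs in WT and 3258 in HET. The deposited doublet score had a median of 0.217 in WT and 0.116 in HET, and the share of UMIs from ribosomal protein genes a median of 0.943% and 0.504%, and the part of these differences in the results was not tested. Levels are given as CPM, the UMIs of a gene summed over nuclei as a share of all UMIs of the same nuclei, scaled to 1000000, and they are compared within a gene, not between genes.

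The label of the subcluster was checked against its markers, which are a description here because the clustering used these genes. Slc1a2, the main glutamate transporter of astrocytes, stood at 2531 CPM in WT and 3573 in HET, against 68.5 and 68.1 CPM in all other nuclei. At least 1 Slc1a2 UMI was found in 98.5% of WT and 99.7% of HET nuclei of the subcluster. In oligodendrocytes, which should lack this transporter and had median depths of 2738 and 2854 UMIs, the share was 14.7% in WT and 20.7% in HET. After every nucleus was thinned to 1000 UMIs, the Slc1a2 shares were 88.0% and 94.0% in the subcluster and 5.70% and 7.80% in oligodendrocytes. Aqp4, the water channel of astrocyte endfeet, stood at 393 CPM in WT and 437 in HET, against 15.6 and 16.3 CPM elsewhere. Gja1, the gap junction protein connexin 43, stood at 262 and 269 CPM, against 9.76 and 10.7 CPM elsewhere. Neither gene was at its highest here. In subcluster 19, a smaller part of the astrocyte cluster, Aqp4 stood at 1234 and 1546 CPM and Gja1 at 330 and 383 CPM. In subcluster 26, another part, Aqp4 stood at 200 and 189 CPM and Gja1 at 116 and 117 CPM. All 30 genes of the astrocyte marker list were detected, and their sum was 23891 CPM in WT and 27076 in HET, against 1391 and 1464 CPM in the other nuclei. A second label deposited for each nucleus named astrocytes for 467 of 475 WT and 584 of 587 HET nuclei, and neurons for the rest.

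**Figure D1:**
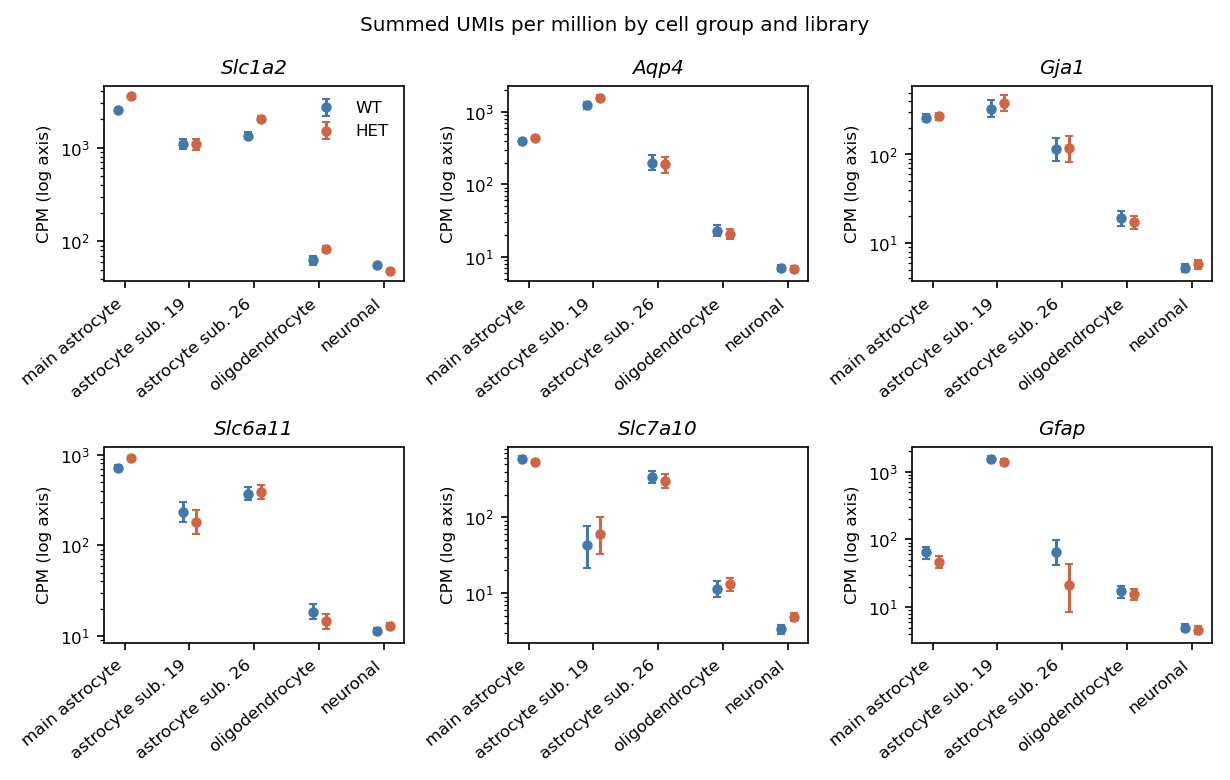
Levels of 6 genes in CPM (log axis) in the main astrocyte subcluster, in astrocyte subclusters 19 and 26, in oligodendrocytes and in the neuronal clusters, for the WT and the HET library, with exact Poisson 95% intervals. Slc1a2, Slc6a11 and Slc7a10 are at their highest of these groups in the main subcluster, while Aqp4, Gja1 and Gfap are at their highest in subcluster 19. Gfap is at 1513 and 1384 CPM in subcluster 19 and at 64.2 and 46.7 CPM in the main subcluster.

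The genes that set the subcluster furthest apart from all other nuclei were transcription factors and receptors of patterning pathways, transporters and noncoding transcripts. They were ranked by the ratio of the subcluster to all other nuclei, with the smaller ratio of both libraries counting. Most of those other nuclei were in the neuronal clusters (11511) and the oligodendrocyte cluster (4149). A high rank can therefore mark a gene of astrocytes at large, not only of this subcluster. Trp63, a transcription factor of the p53 family best known from epithelia, was 126-fold higher than in the other nuclei in WT (183 against 1.45 CPM) and 134-fold higher in HET (148 against 1.11 CPM). The homeobox and paired-box factors Dbx2, Pax3 and Prrx1 also ranked among the 20 leading genes. Pax3, a factor of the dorsal neural tube, stood at 103 CPM in WT and 121 in HET, against 1.67 and 2.25 elsewhere. The other astrocyte nuclei held Pax3 at 91.4 and 109 CPM, for a log2 ratio of the main subcluster over them of 0.18 (-0.27 to 0.64) in WT and 0.15 (-0.26 to 0.57) in HET. Gli2, a mediator of Sonic hedgehog signalling, stood at 158 and 236 CPM, against 2.18 and 2.99. The fibroblast growth factor receptor Fgfr3 stood at 278 CPM in both libraries, against 4.27 and 4.35 in the other nuclei. Gli2 stood at 86.6 and 118 CPM and Fgfr3 at 159 and 153 CPM in the other astrocyte nuclei.

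Among the transporters and enzymes of the leading 20, Slc7a10, which carries serine and glycine, stood at 597 CPM in WT and 534 in HET, against 7.60 and 8.01 elsewhere. Slc39a12, a zinc importer, stood at 712 and 847 CPM, against 10.8 and 11.1. Aldh1a1, which makes retinoic acid, stood at 1015 and 1248 CPM, against 15.8 and 18.1. The other astrocyte nuclei held Slc7a10 at 222 and 203 CPM, Slc39a12 at 422 and 606 CPM and Aldh1a1 at 617 and 782 CPM. Cd38, an enzyme that consumes NAD, and Acsbg1, which activates fatty acids, belonged to the same group, with Atp13a4 and Lgr6. The remaining leading genes were the noncoding transcripts A330087D11Rik, A330076C08Rik, Gm13872, Gm6145, Gm13266, Gm3764 and Egfros. Gm13266 was level with the other astrocyte nuclei in HET (84.5 against 84.6 CPM) but higher in WT (112 against 55.1 CPM). A330087D11Rik headed the ranking, at 87.2 CPM in WT and 42.8 in HET against 0.494 and 0.140 elsewhere.

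Regional identity was read from position-code genes. Of the 8 forebrain genes on the list, 7 were in the count table, and together they gave 8 UMIs in WT and 7 in HET, with Six3 and Emx2 at 0 in both libraries. The hindbrain and midbrain list gave 1481 and 2007 UMIs, or 1001 and 986 CPM, led by Meis2 (345 and 335 CPM) and Meis1 (235 and 278 CPM), which are partners of Hox proteins. All nuclei outside the subcluster held this list at a similar level, 962 and 897 CPM, and the neuronal clusters at 1015 and 956 CPM. Its sum is therefore not particular to these astrocytes. Hox genes were detected at low counts, such as Hoxa3 with 48 and 45 UMIs and Hoxb3 with 27 and 33. Slc6a11, a GABA transporter typical of astrocytes outside the telencephalon, stood at 719 CPM in WT and 916 in HET, and the glycine transporter Slc6a9 at 220 and 174 CPM. Genes of a telencephalic astrocyte list were also present, among them Grm3 at 312 and 408 CPM and Tenm4 at 416 and 464 CPM, but Tenm4 was higher outside the subcluster (538 and 564 CPM).

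The astrocyte cluster held 256 further nuclei, in subclusters 19 (142 nuclei) and 26 (114 nuclei), and the main subcluster was set beside them. Gfap, the intermediate filament of fibrous and reactive astrocytes, stood at 64.2 CPM in WT and 46.7 in HET in the main subcluster, and at 1513 and 1384 CPM in subcluster 19. Myoc, a secreted protein found in white matter and surface astrocytes, stood at 2.70 and 0.983 CPM, against 456 and 618 CPM in subcluster 19. Vim, another intermediate filament, stood at 12.2 and 7.37 CPM, against 106 and 93.7. Subcluster 26 was closer to the main subcluster for these genes, with Gfap at 65.7 and 21.0 CPM, Myoc at 31.5 and 15.0 CPM and Vim at 5.26 and 0 CPM. The list of fibrous and white matter astrocyte genes summed to 1027 and 1056 CPM in the main subcluster, with Aqp4 as its leading member, against 2386 and 2556 CPM in the other astrocyte nuclei and 418 and 440 CPM in all nuclei outside the main subcluster. Gpc5, a heparan sulfate proteoglycan, stood at 8820 CPM in WT and 10017 in HET in the main subcluster, at 185 and 132 CPM in subcluster 19 and at 4908 and 5561 CPM in subcluster 26.

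Prr5l, St18, 6330411D24Rik and Tmeff2 were also lower in the main subcluster than in the other astrocyte nuclei. St18, a transcription factor of oligodendrocytes, stood at 22.3 and 51.1 CPM in the main subcluster and at 2037 and 1935 CPM in subcluster 26, whose nuclei were deeper (median 5099 UMIs in WT and 5127 in HET). Kalrn, a regulator of the actin cytoskeleton, was higher, at 201 and 221 CPM against 63.0 and 68.7 CPM in the other astrocyte nuclei. Mfsd2a, a lipid transporter, was higher too, at 37.2 and 67.8 CPM against 12.6 and 22.9. Slc1a4, an exchanger of neutral amino acids including serine, stood at 60.8 and 51.1 CPM against 18.9 and 17.6, and Trp63 at 183 and 148 CPM against 63.0 and 47.6.

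Between the genotypes, none of the astrocyte markers differed 2-fold, while ribosomal protein and respiratory chain genes were lower in HET and a smaller number of genes, many of them antisense transcripts, were higher. Of 8741 genes with at least 50 UMIs in both libraries together, 154 (1.76%) were at least 2-fold higher in HET and 331 (3.79%) at least 2-fold lower, 5.55% in either direction. The log2 ratio of HET over WT was above 0 for 42.6% and below 0 for 57.4% of them, and its median was -0.08. Over the 3091 genes with at least 200 UMIs the median was 0.01. The shares over the 8741 genes are the background for the counts of list members below. Scn1a, the mutated gene, had 101 UMIs (68.3 CPM) in WT and 145 (71.3 CPM) in HET, for a log2 ratio of 0.06 (-0.31 to 0.44). A missense allele is transcribed, so that its level does not check the genotype labels. In all other nuclei Scn1a stood at 387 CPM in WT and 432 in HET.

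**Figure D2:**
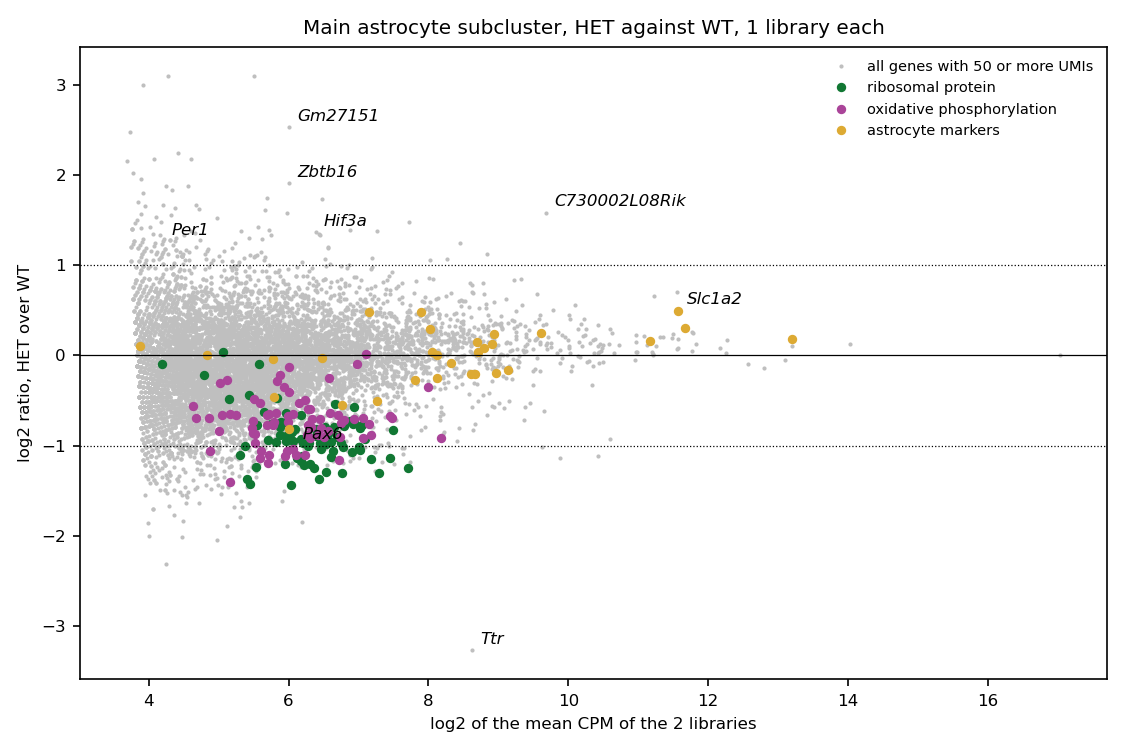
Log2 ratio of HET over WT in the main astrocyte subcluster (vertical axis) against the log2 of the mean CPM of both libraries (horizontal axis), 1 point per gene with at least 50 UMIs, with 2-fold limits dotted. Ribosomal protein and oxidative phosphorylation genes lie below 0, astrocyte markers lie around 0, and Ttr has the lowest ratio at -3.28.

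The astrocyte markers lay around equality. None of the 30 passed 2-fold, 17 were above and 13 below 0, and their median log2 ratio was 0.02 beside -0.08 for all genes with at least 50 UMIs. Slc1a2 had the highest ratio, with 3744 WT and 7270 HET UMIs and a log2 ratio of 0.50 (0.44 to 0.55). Glul, glutamine synthetase, followed the same direction with 293 and 564 UMIs and a log2 ratio of 0.48 (0.28 to 0.69). Both serve the uptake of glutamate and its turnover to glutamine. The log2 ratio of Slc1a2 was 0.39 in the other astrocyte nuclei and in oligodendrocytes, and -0.19 in the neuronal clusters. Aqp4 had a log2 ratio of 0.15 (-0.00 to 0.30) and Gja1 one of 0.04 (-0.15 to 0.23). Sox9, a transcription factor that maintains astrocyte identity, had the lowest ratio of the list at -0.82 (-1.22 to -0.42), with 122 and 95 UMIs.

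In the list for glutamate and glutamine, 6 of 14 genes were above 0 and 8 below, and none passed 2-fold. The glutamate transporter Slc1a3 had a log2 ratio of 0.04 (-0.11 to 0.19). The glutamine transporters Slc38a3 and Slc38a1 both had one of -0.53. The summed list was at 5104 CPM in WT and 6206 in HET (log2 ratio 0.28, 0.24 to 0.32), although its median was -0.10, since Slc1a2 gave 54.6% of its UMIs. For inhibitory transmitters, the GABA transporter Slc6a11 had a log2 ratio of 0.35 (0.24 to 0.46). Of 10 genes for GABA and glycine with enough UMIs, 4 were above 0 and 6 below, none past 2-fold, and their sum had a log2 ratio of 0.02 (-0.04 to 0.09).

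Genes for potassium, water and ions were similarly placed, with 11 above and 10 below 0 among 21, none past 2-fold and a median of 0.08. The sodium bicarbonate cotransporter Slc4a4 had a log2 ratio of 0.30 (0.25 to 0.36), and the potassium channel Kcnj10 one of 0.30 (0.10 to 0.49). Of the 4 gap junction genes with enough UMIs, Gjb6 (connexin 30) had 0.49 (0.22 to 0.76), and none passed 2-fold. Of the genes that act on synapses or on contacts between cells, 17 of 23 were above 0 and none passed 2-fold, with a median of 0.18. Mertk, a receptor for engulfment, had a log2 ratio of 0.63 (0.44 to 0.83), with 325 and 694 UMIs. Lsamp, an adhesion molecule, had one of 0.13 (0.10 to 0.15) with 23566 and 35379 UMIs.

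Among receptors, 23 of 38 were above 0 and 1 passed 2-fold. This was the serotonin receptor Htr2b, with 29 WT and 83 HET UMIs and a log2 ratio of 1.06 (0.43 to 1.72). The GABA-B receptor subunit Gabbr2 had 242 and 591 UMIs and a log2 ratio of 0.83 (0.61 to 1.05), beside -0.06 (-0.29 to 0.16) for its partner subunit Gabbr1. The growth factor receptor Fgfr2 had 0.56 (0.46 to 0.65).

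Of 33 astrocyte transcription factors, 19 were above 0 and 14 below, and 5 were at least 2-fold lower. Over all genes with at least 50 UMIs, 57.4% were below 0 and 3.79% at least 2-fold lower. Sox8, a glial factor of the Sox family, had 134 WT and 60 HET UMIs and a log2 ratio of -1.62 (-2.08 to -1.17). Nkx6-2 had 69 and 35 UMIs and a log2 ratio of -1.44 (-2.07 to -0.83). Hes1, a target of Notch signalling, had 97 and 55 UMIs and -1.28 (-1.78 to -0.79). Gli1, a target of Sonic hedgehog signalling, had 80 and 50 UMIs and -1.14 (-1.68 to -0.61), while Gli2 had 0.58 (0.35 to 0.81). Pax6 had 134 and 92 UMIs and a log2 ratio of -1.002 (-1.40 to -0.61). The factors with many UMIs lay near 0 or above it, with Npas3 at 0.03, Zbtb20 at 0.02, Nfia at 0.25 and Rora at 0.26. Of the position-code genes, Hoxb2 passed 2-fold with 33 and 21 UMIs (log2 ratio -1.11, -1.97 to -0.28). Of the other 10 position-code genes with enough UMIs, 5 were above 0 and 5 below. Hopx, on the lists for telencephalic astrocytes and Bergmann glia, was lower (50 and 25 UMIs, -1.46), and Dio2, the telencephalic list's enzyme that activates thyroid hormone, was higher (44 and 131 UMIs, log2 ratio 1.11, 0.61 to 1.64).

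Metabolic genes differed by pathway. Oxidative phosphorylation genes, which encode the mitochondrial respiratory chain and ATP synthase, were below 0 for 72 of 73 members, and 12 of them were at least 2-fold lower. Their sum was 7116 CPM in WT and 4374 in HET, for a log2 ratio of -0.70 (-0.74 to -0.66), and their median was -0.72. Of all genes with at least 50 UMIs, 57.4% were below 0 and 3.79% at least 2-fold lower. Cox4i1, a subunit of cytochrome oxidase, had 562 and 409 UMIs and a log2 ratio of -0.92 (-1.11 to -0.73). Ndufa1, of complex I, had the lowest ratio of the list at -1.40 (-1.99 to -0.84), with 77 and 40 UMIs. The sum of the list was also lower in HET in oligodendrocytes (-0.71) and in the neuronal clusters (-0.61) of the same libraries.

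In the TCA cycle and pyruvate entry, 21 of 28 genes were below 0 and the median was -0.38. Mpc2, of the mitochondrial pyruvate carrier, had 152 WT and 96 HET UMIs and a log2 ratio of -1.12 (-1.51 to -0.74). Pdk4, which inhibits pyruvate dehydrogenase, had 40 and 26 UMIs and -1.08 (-1.85 to -0.33). Citrate synthase (Cs) had a log2 ratio of -0.46 (-0.75 to -0.17). In glycolysis 12 of 17 genes were below 0 with a median of -0.31, and Pgam1 alone passed 2-fold (92 and 63 UMIs, -1.01). Aldoc, the astrocyte aldolase, had -0.09 (-0.26 to 0.09) and Pfkp, a phosphofructokinase, 0.43 (0.23 to 0.63). The sum of the TCA list had a log2 ratio of -0.26, beside -0.30 in oligodendrocytes and -0.23 in the neuronal clusters. For glycolysis the sum was at -0.17, beside -0.26 and -0.22 in the same cell groups.

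For glycogen, the energy store of the brain held by astrocytes, 10 of 15 genes were below 0 and none passed 2-fold, and the median of -0.09 was close to that of all genes. Phkg1, the catalytic subunit of phosphorylase kinase, had 731 and 706 UMIs and a log2 ratio of -0.51 (-0.66 to -0.36). In glucose and lactate transport, Bsg, which chaperones the lactate transporters, had 438 and 266 UMIs and -1.18 (-1.40 to -0.96). The glucose transporter Slc2a1 had a log2 ratio of -0.08 (-0.50 to 0.34). The sum of this transport list was at -0.61, beside -0.46 in oligodendrocytes and -0.29 in the neuronal clusters. Of 5 pentose phosphate genes with enough UMIs, 4 were below 0, with a median of -0.49 and none past 2-fold. The sum of the pentose phosphate list was at -0.39, beside -0.47 in oligodendrocytes and -0.26 in the neuronal clusters. In fatty acid oxidation and activation 14 of 19 were below 0, with a median of -0.16 and none past 2-fold, and Acsl3, which activates long-chain fatty acids, had 0.50 (0.39 to 0.61).

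Cholesterol and lipoprotein genes had a median of -0.02, with 9 of 23 above 0 and none past 2-fold. Apoe, the main lipoprotein of astrocytes, stood at 1476 CPM in WT and 1404 in HET (log2 ratio -0.07, -0.15 to 0.01). Of the genes for glutathione and redox control, 17 of 21 were below 0 and 4 were at least 2-fold lower (57.4% and 3.79% over all genes). The thioredoxin gene Txn1 had 53 and 18 UMIs (-2.02, -2.88 to -1.22), Mt3, a metallothionein, had 331 and 201 UMIs (-1.18, -1.44 to -0.92), and the other two were Prdx1 (-1.03) and Gstm5 (-1.02). Prdx6, a peroxiredoxin of astrocytes, had 0.24 (0.06 to 0.42). The sum of the glutathione and redox list was at -0.26, beside -0.04 in oligodendrocytes and 0.06 in the neuronal clusters. In the other astrocyte nuclei it was at -0.27.

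**Figure D3:**
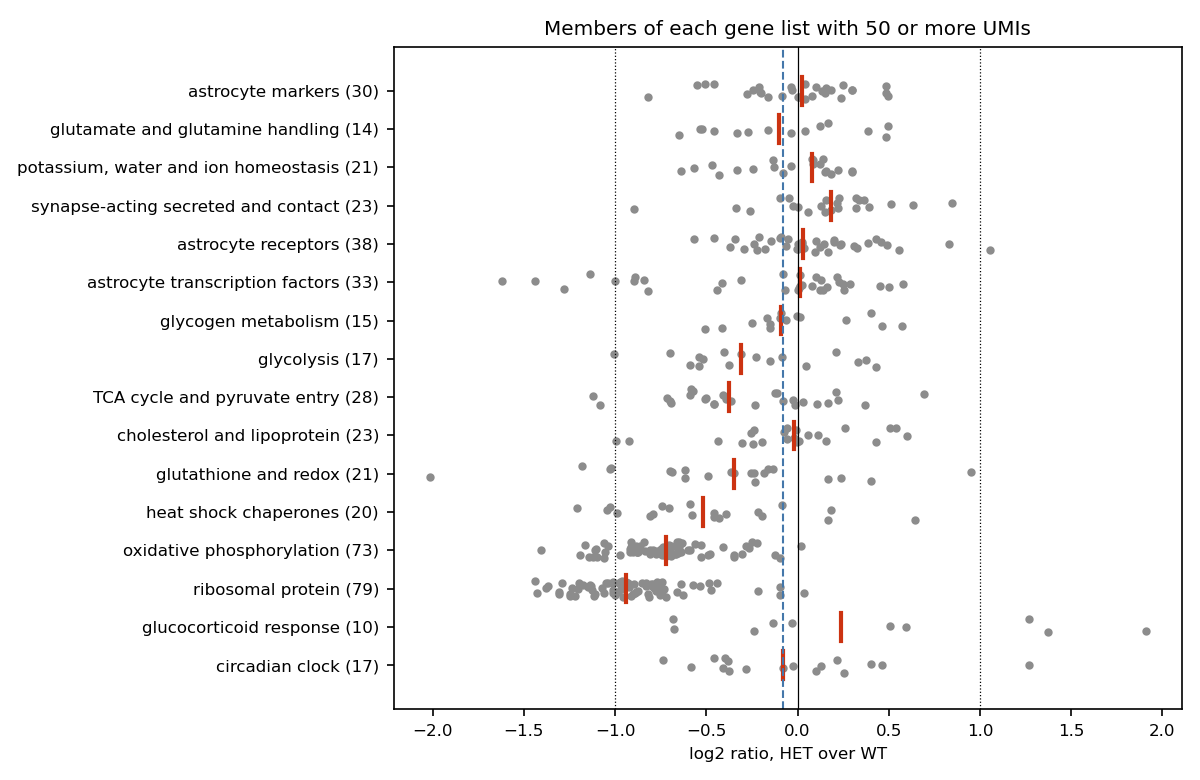
Log2 ratio of HET over WT for the members of 16 gene lists with at least 50 UMIs (number in parentheses), 1 point per gene, with the list median in red, the median of all genes dashed in blue and 2-fold limits dotted. Ribosomal protein and oxidative phosphorylation genes lie almost wholly below 0, and 3 glucocorticoid response genes lie beyond 1.

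Ribosomal protein genes were lower in HET for 78 of 79 members, 29 of them at least 2-fold. Their sum was 8864 CPM in WT and 4629 in HET, for a log2 ratio of -0.94 (-0.98 to -0.90). Rplp1 had 330 and 183 UMIs (-1.31, -1.58 to -1.05), and Rpl4 alone was above 0, at 0.03. Many of these genes have near-identical processed copies, so their single counts are uncertain. The sum was lower by a similar amount in oligodendrocytes (-0.82), in the neuronal clusters (-0.85) and in the other astrocyte nuclei (-0.84). Heat shock and chaperone genes were below 0 for 17 of 20, with 3 at least 2-fold lower, namely Ubb (-1.21), Cryab (-1.04) and Hspa8 (-1.03). Their sum was at -0.69, beside -0.66 in oligodendrocytes and -0.38 in the neuronal clusters. For comparison with both lists, 57.4% of all genes with at least 50 UMIs were below 0 and 3.79% at least 2-fold lower.

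These lists hold short genes, and the ratio followed gene length over the whole table. When 8652 genes with a known length were divided into 5 groups of about equal size, the median log2 ratio was -0.47 in the group of the shortest genes, up to 13.4 kb. It was -0.24, -0.10, -0.01 and 0.18 in the next groups, the last of which begins at 106 kb. Without ribosomal protein and oxidative phosphorylation genes, the shortest group still held 1596 genes with a median of -0.43. The part of gene length in the values of the lists was not tested.

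**Figure D4:**
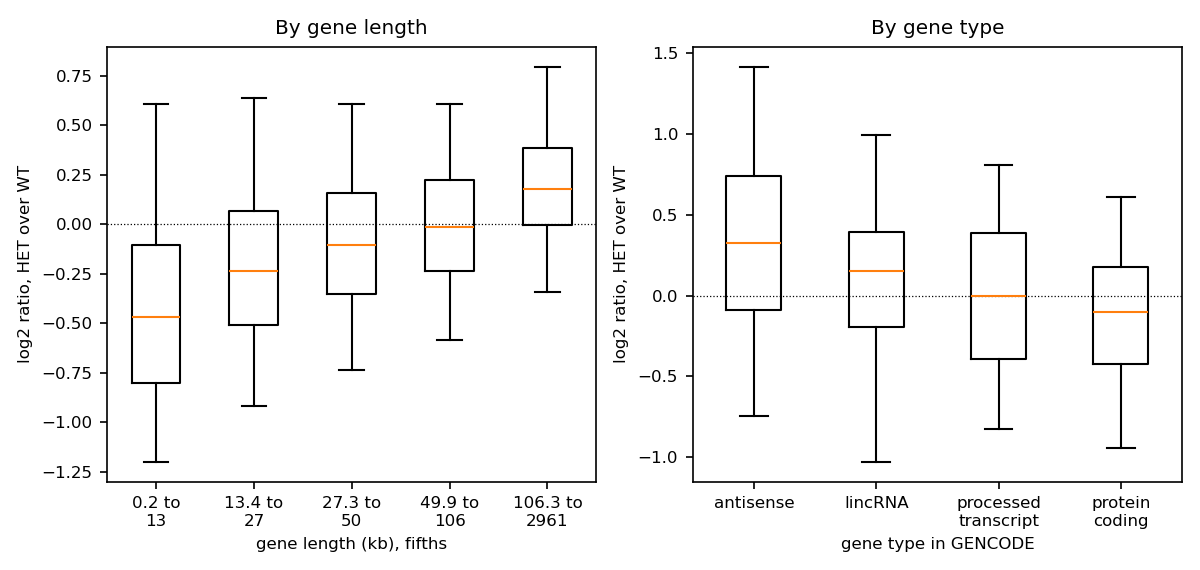
Log2 ratio of HET over WT in 5 groups by gene length in kb (left) and by the gene type of the annotation (right), as boxes of the quartiles with the median and with whiskers that leave out 5% of genes at each end. The median goes from -0.47 in the shortest genes to 0.18 in the longest, and it is 0.32 for antisense genes and -0.10 for protein-coding genes.

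Antisense transcripts made up a large share of the genes higher in HET. Of 354 antisense genes with at least 50 UMIs, 45 (12.7%) were at least 2-fold higher in HET, against 92 of 8027 protein-coding genes (1.15%). Whether strand was used in the counting is not given in the sources used here, so an antisense gene and its partner cannot be told apart with certainty. Gm27151, an antisense gene inside Trpm3 (mm10, chr19:22438520-22448865, minus strand), had the highest ratio among genes with at least 200 UMIs. It had 28 UMIs in 28 WT nuclei and 224 UMIs in 180 HET nuclei, a log2 ratio of 2.54 (1.97 to 3.16), while Trpm3 had one of 0.11. The ratio of Gm27151 was 0.34 in oligodendrocytes, with an interval that includes 0, and 0.44 in the neuronal clusters. In the other astrocyte nuclei it was 2.35 (1.15 to 3.78), from 7 and 32 UMIs.

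C730002L08Rik, a processed transcript opposite Aldh1a1 (mm10, chr19:20410544-20552330, minus strand), had 606 WT and 2506 HET UMIs, or 410 and 1232 CPM. It was detected in 56.8% of WT and 83.8% of HET nuclei, and its log2 ratio was 1.59 (1.46 to 1.72), beside 0.30 for Aldh1a1. In the other astrocyte nuclei it was 1.36, in oligodendrocytes 0.77 and in the neuronal clusters 0.38. Macrod2os1, opposite Macrod2, had 47 and 193 UMIs (1.58, 1.11 to 2.07), and Gm13187, opposite Frmd4a, had 61 and 279 (1.73, 1.33 to 2.16). Both were also higher in HET in other cells. Macrod2os1 was at 1.65 in oligodendrocytes and 0.87 in the neuronal clusters, and Gm13187 at 1.38 and 1.53. Egfros, opposite the growth factor receptor gene Egfr, was both among the leading genes of the subcluster and 2-fold higher in HET, with 138 and 403 UMIs (1.09, 0.80 to 1.38) beside 0.15 for Egfr. Its ratio was 1.61 in the other astrocyte nuclei and 1.48 in the neuronal clusters, while oligodendrocytes held only 7 and 3 UMIs.

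Of the protein-coding genes at the top of the ranking, Zbtb16 (mm10, chr9:48654297-48836222, minus strand), a zinc-finger transcription factor, had 40 UMIs in 39 WT nuclei and 207 UMIs in 163 HET nuclei. Its log2 ratio was 1.91 (1.42 to 2.44), with 2.71 in the other astrocyte nuclei, 1.86 in oligodendrocytes and 0.69 in the neuronal clusters. Insyn2a, a protein of inhibitory synapses, had 164 and 631 UMIs (1.48, 1.23 to 1.74), beside 1.21 in oligodendrocytes and 0.52 in the neuronal clusters. Stk32a, a kinase, had 127 and 454 UMIs (1.38, 1.09 to 1.67), beside 0.38 (-0.43 to 1.23) in oligodendrocytes and -0.14 in the neuronal clusters. In the other astrocyte nuclei Stk32a had 70 and 142 UMIs and a log2 ratio of 1.18 (0.76 to 1.62). Utp14b (96 and 347 UMIs, 1.39) lies within Acsl3 on the same strand, so that reads may be shared. Its ratio was 0.86 in the other astrocyte nuclei, 1.20 in oligodendrocytes and 0.63 in the neuronal clusters. Gm15336, which is an antisense gene and not protein-coding (72 and 253 UMIs, 1.35), completes the 10 highest. It was also higher in HET in the other astrocyte nuclei (1.90), in oligodendrocytes (1.72) and in the neuronal clusters (0.80).

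**Figure D5:**
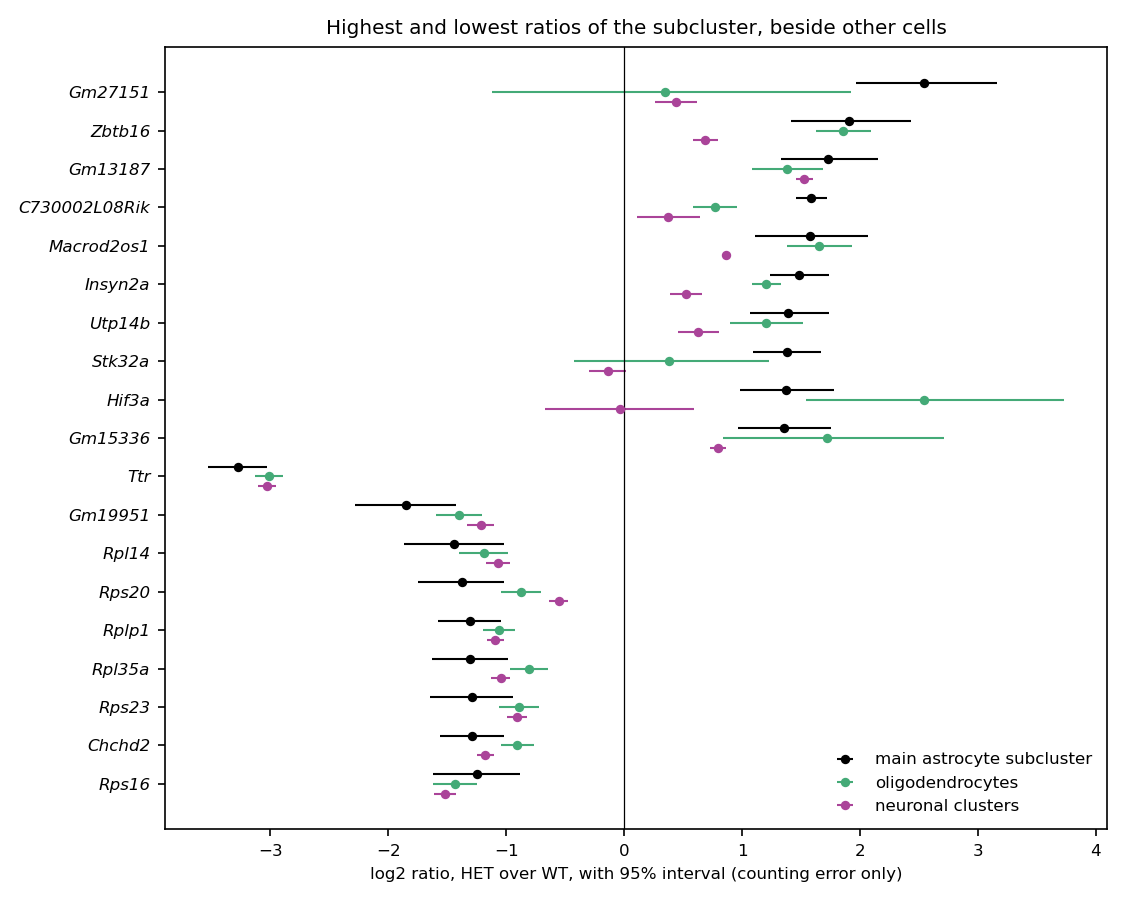
Log2 ratio of HET over WT with exact 95% intervals (counting error only) for the 10 highest and 9 of the 10 lowest genes with at least 200 UMIs in the main astrocyte subcluster, beside the ratios of the same genes in oligodendrocytes and in the neuronal clusters. The lowest genes are below 0 in each of these cell groups, while the ratios of Gm27151, Stk32a and Hif3a differ in size between the groups.

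Zbtb16, Hif3a and Per1 are known to be raised by glucocorticoids, the adrenal stress hormones. They were the members of the glucocorticoid response list past 2-fold, 3 of its 10 members with enough UMIs. Over all genes with at least 50 UMIs, 1.76% were at least 2-fold higher in HET. The list was written with earlier results of these data known, so this count is a description and no test of the list. Hif3a, a hypoxia-inducible factor that can restrain the others of its family, had 69 UMIs in 63 WT nuclei and 246 UMIs in 181 HET nuclei, or 46.6 and 121 CPM (1.37, 0.98 to 1.78). Per1, a repressor of the circadian clock, had 16 UMIs in 14 WT nuclei and 53 UMIs in 50 HET nuclei (1.27, 0.44 to 2.17). Tsc22d3, another gene of the list, had 95 and 186 UMIs (0.51, 0.15 to 0.88). Others were near or below 0, among them Klf9 (-0.03), Mt1 (-0.14), Mt2 (-0.24) and Errfi1 (-0.68), and the median of the list was 0.24. Fkbp5, which is under the minimum and was named after its values were seen, had 3 UMIs in WT and 24 in HET. The glucocorticoid receptor Nr3c1 had a log2 ratio of 0.10 (-0.12 to 0.32) and the mineralocorticoid receptor Nr3c2 one of 0.31 (0.18 to 0.44).

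In other cells of the same libraries, Hif3a had a log2 ratio of 1.44 in the other astrocyte nuclei, 2.55 in oligodendrocytes and -0.04 in the neuronal clusters. Per1 had one of 1.58, 1.98 and 0.17 in the same groups. Hif3a was found in 13.3% of WT and 30.8% of HET nuclei of the subcluster, and in 0.736% and 0.742% of neuronal nuclei, whose median depths were 7729 and 8390 UMIs. Of the other clock genes, Npas2 had 0.46 (0.29 to 0.64) and Cry2 -0.37 (-0.69 to -0.06), and Per1 alone of 17 passed 2-fold.

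The sequences upstream of the gene starts are shown for Hif3a and Per1, the members past 2-fold with an entry in the promoter table, so that the letters behind this list can be read. They are the 250 bases before the start, from RefSeq on GRCm38.p6, written 5′ to 3′ on the strand of the gene. Capitals mark matches to CACGTG, the E-box bound by clock factors, or to TGTTCT on either strand, an arm of the element bound by the glucocorticoid receptor.
Hif3a, minus strand, chr7:17062428-17062677: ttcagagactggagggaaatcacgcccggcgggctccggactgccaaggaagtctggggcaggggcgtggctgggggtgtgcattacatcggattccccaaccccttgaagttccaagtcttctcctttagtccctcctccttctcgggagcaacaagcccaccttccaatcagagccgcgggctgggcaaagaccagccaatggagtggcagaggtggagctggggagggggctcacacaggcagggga
Per1, plus strand, chr11:69098699-69098948: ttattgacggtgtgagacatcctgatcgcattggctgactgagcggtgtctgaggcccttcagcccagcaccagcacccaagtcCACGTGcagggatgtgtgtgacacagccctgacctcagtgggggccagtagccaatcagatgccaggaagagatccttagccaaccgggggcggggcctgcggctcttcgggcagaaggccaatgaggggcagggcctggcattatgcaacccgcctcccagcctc
The Per1 window holds 1 E-box, and neither window holds TGTTCT or its reverse complement AGAACA. Per1 has a second entry in the table, which holds neither motif. Of 32851 windows of this length, 6.02% hold CACGTG and 16.1% hold TGTTCT or AGAACA.

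The lowest ratio belonged to Ttr, the thyroid hormone carrier made by the choroid plexus, with 1056 WT and 150 HET UMIs, or 714 and 73.7 CPM (-3.28, -3.53 to -3.03). It was found in 86.9% of WT and 22.1% of HET nuclei of the subcluster. The shares were 86.8% and 23.3% in oligodendrocytes and 86.2% and 23.3% in the neuronal clusters, so Ttr was at a similar share in cell types that should lack it. The lincRNA Gm19951 (170 and 65 UMIs, -1.85) and Chchd2, a mitochondrial protein (316 and 178 UMIs, -1.29), were the other genes of the 10 lowest that are not ribosomal proteins.

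Markers of other cell types were present at low levels. Neuronal markers summed to 2859 CPM in WT and 3320 in HET (log2 ratio 0.22), and 2 of 16 passed 2-fold upward, Rbfox1 (294 and 847 UMIs, 1.07) and Rbfox3 (21 and 62 UMIs, 1.10). Oligodendrocyte markers summed to 2113 and 2145 CPM (0.02), with Prr5l, St18 and Mobp past 2-fold upward. Microglial markers summed to 330 and 219 CPM (-0.59), and the complement genes C1qa (75 and 25 UMIs, -2.04), C1qb and C1qc and the protease gene Ctss were lower, while P2ry12 had 0.20 (-0.17 to 0.57). C1qa was also lower in oligodendrocytes (-1.61) and in the neuronal clusters (-1.62). Oligodendrocyte precursor markers summed to 876 and 815 CPM (-0.10) and granule cell markers to 177 and 152 CPM (-0.22). Ependymal markers summed to 99 and 69 UMIs, mural and fibroblast markers to 306 and 286 UMIs, and endothelial markers to 204 and 267 UMIs. Their part in the results was not tested.

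Genes of reactive astrocytes were few and low. Of 34 on the list, 6 had at least 50 UMIs, all 6 were below 0, and none passed 2-fold, with a median of -0.51. The sum of the list was at -0.35, beside -0.23 in the other astrocyte nuclei, -0.30 in oligodendrocytes and -0.33 in the neuronal clusters. The median length of the 6 genes was 7481 bases, and the part of gene length was not tested. Gfap had 95 UMIs in each library and a log2 ratio of -0.46 (-0.89 to -0.03). Of 7 fibrous astrocyte genes with enough UMIs, 3 were above 0 and 4 below, and none passed 2-fold. Lcn2, Ptx3, Steap4 and Cxcl10 were at 0 in both libraries, and C3 had 1 UMI in WT. Of 22 immediate early genes, which respond to cell activity, Jund alone reached 50 UMIs (-0.28, -1.02 to 0.46).

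The finer of the deposited labels split the subcluster unequally between the libraries. It named qNSCs, an abbreviation the files do not spell out, for 45 WT and 2 HET nuclei, and astrocytes for 425 and 583. The 45 WT nuclei had a median of 2199 UMIs, against 2898 in WT nuclei labelled astrocytes, and a median of 1.32% ribosomal protein UMIs, against 0.916%. Aqp4 stood at 696 CPM in them, against 375, and Gfap at 130 CPM (14 UMIs), against 60.1. Without the nuclei labelled qNSCs, the ribosomal protein sum had a log2 ratio of -0.90.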

How the data were processed

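Brainstem nuclei of 1 WT and 1 HET mouse were profiled with 10x 3′ v3.1 libraries. The deposited counts are raw UMIs per gene and nucleus, made by the authors with Cell Ranger on mm10 and filtered in Seurat 4.1, per the submitters' processing notes; mitochondrial and hemoglobin genes had been removed. The percent values (mitochondrial and ribosomal protein UMIs), the doublet score, whose caller is not named, the clusters and both labels were used as deposited by the authors. Nuclei that the authors called doublets are absent from the counts. Low-depth nuclei had been filtered by the authors, and no further filter was applied.

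UMIs were summed over nuclei and compared as log2 ratios of CPM with exact conditional binomial intervals, levels with exact Poisson and shares with Clopper-Pearson intervals. PCR duplicates are removed by UMIs, and the intervals cover counting error only. Lists were described by counts, median and sum. Genes were counted from 50 UMIs and ranked from 200 UMIs. The text names the 20 leading genes of the subcluster, the 10 highest and 10 lowest ratios, the 5 highest and 5 lowest against the other astrocyte nuclei, Scn1a, and of each list the members past 2-fold and the 4 with the most UMIs. A few genes that these rules name are not reported here. Other members were chosen after their values were seen, to show the range of a list. The members, the 38 lists and the rules were chosen with earlier results of these data known. Gene positions and types are from GENCODE vM21. Scripts ran in Python 3.11.15 with scipy 1.17.1 for intervals, numpy 2.4.6 and pandas 2.3.3 for sums and matplotlib 3.10.9 for figures. The ratio code was tested on simulated data. Alternatives changed scaling, totals, nuclei, weights and minimum counts.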

Additional observations from a re-analysis of the deposited data

Results flagged for a closer look

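Pax6, a paired-box transcription factor of astrocytes and some neurons, moved in opposite directions in the main astrocyte subcluster and in the neuronal clusters. In the subcluster it had 134 WT and 92 HET UMIs and a log2 ratio of -1.002 (-1.40 to -0.61). In the neuronal clusters it had 257 and 394 UMIs and a log2 ratio of 0.77 (0.54 to 1.00). The neuronal clusters differed in make-up between the libraries: the granule cell markers, a list that includes Pax6, summed to 48.9 CPM in WT and 103 in HET there (log2 ratio 1.08, 1.01 to 1.14), and the part of this in the Pax6 value was not tested. The screen covered 87 named genes, those past 2-fold in the subcluster or among its highest and lowest ratios, and it met intervals of opposite sign for Pax6 alone. Named genes with smaller ratios were outside the screen and also had such intervals, for example Slc1a2 at 0.50 (0.44 to 0.55) in the subcluster and -0.19 (-0.27 to -0.12) in the neuronal clusters. With 1 library per genotype the difference between the cell groups was not tested.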

How the results depend on the processing

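No paired analysis was possible because each genotype has 1 library, and no replicate could be left out. Minimum counts set how many genes passed 2-fold: 392 were higher and 663 lower in HET with a minimum of 20 UMIs, 23 and 73 with 200 UMIs, and 1286 and 1788 with none. Of 342 values of list sums under the alternatives, 322 stayed within their main interval. With all nuclei of the astrocyte cluster, the log2 ratios of the sums were 0.25 for astrocyte markers, 0.20 for potassium, water and ions, 0.16 for synapse-acting genes, 0.18 for receptors, 0.12 for transcription factors, 0.077 for Bergmann glia, 0.25 for clock genes, -0.18 for oligodendrocyte markers, -0.27 for precursor markers and -1.72 for choroid plexus markers. Of the named genes reported here, those that then changed direction were Prr5l (-0.14), St18 (-0.38), 6330411D24Rik (-0.44), Tmeff2 (-0.093) and Pbx3 (-0.041). With the mean over nuclei, oxidative phosphorylation was at -0.75 and ribosomal proteins at -0.99. With nuclei of at least 2000 UMIs, synapse-acting genes were at 0.063 and ribosomal proteins at -0.89. Without the 5% highest doublet scores, ribosomal proteins were at -0.98 and neuronal markers at 0.31. Neuronal markers were at 0.29 where the second label also named astrocytes and at 0.33 without the 10% of nuclei richest in other markers, where endothelial markers were at -0.35. Without nuclei labelled qNSCs, an alternative added after seeing the data, ribosomal proteins were at -0.90. The cause of these shifts was not tested. The share of nuclei was 15.1% in WT and 16.2% in HET of nuclei outside the neuronal clusters, 78.0% and 82.8% of the astrocyte cluster, 4.65% in WT among nuclei of at least 2000 UMIs, and 6.58% and 7.86% for the whole astrocyte cluster. Genes with under 50 UMIs were not counted, and with 1 animal per genotype the spread between animals is unknown.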
